A study of Homo sapiens with 16 samples.

Results

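The genes described here are 44 members of the stress response that the transcription factors ATF4 and CHOP run, together with the cytosolic tRNA synthetases. They were chosen by gene symbol in 4 classes of 8 transcription factors, 13 stress effectors, 6 amino acid transporters and 17 cytosolic tRNA synthetases, and each was matched to array probes through the RefSeq accession of the probe. All 44 were measured, among 20503 gene symbols on the array, and all 44 were bright enough to be tested, among 16398 genes tested. The cells were LP-1, a human multiple myeloma cell line, transduced with a lentivirus carrying cIAP2 and eGFP (LP-1-cIAP2-eGFP) or eGFP alone (LP-1-eGFP, the control), and the study's methods state that eGFP of the transduced cells was measured by flow cytometry and that cells were sorted. Whether each line descends from a single clone is not given in the sources used here. Each line was left untreated or given 10 nM bortezomib, an inhibitor of the proteasome, and both arms were collected at 6 h and at 24 h. The methods call the 2 arrays of each of these 8 conditions biological replicates. The comparisons ask how these genes answered proteasome inhibition and whether the answer differed in cells overexpressing cIAP2, an inhibitor of apoptosis protein.

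Several kinases phosphorylate the translation factor eIF2 when cells lack amino acids, fail to fold proteins in the endoplasmic reticulum, carry viral RNA or lack haem. Most protein synthesis then slows while translation of ATF4 mRNA increases, and ATF4, with partners of the C/EBP family, switches on amino acid transporters, amino acid synthesis, many tRNA synthetases and the gene of CHOP, DDIT3. CHOP in turn drives genes that restart translation or favour cell death, and plasma cells and myeloma cells, which make large amounts of secreted protein, are known to depend on these pathways.

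On all values below, signal is the log2 of the quantile-normalized array intensity, and a difference of 1 on this scale is 2-fold. Levels of different genes come from different probes and are not compared with each other. The labelled cell type was checked against its markers. All 8 plasma cell or myeloma markers were well above background on at least 15 of 16 arrays, with XBP1 between 15.91 and 17.69, while the B cell markers MS4A1 and PAX5, the monocyte marker CSF1R, the epithelial marker EPCAM and the fibroblast marker COL1A2 were too dim to be tested. Of the other markers, the T cell genes CD3D and CD3E stayed below 6.45, and CD2 was at 5.23 to 7.82 on 15 arrays and at 11.49 on replicate 1 of the bortezomib-treated LP-1-cIAP2-eGFP cells at 24 h. The array probe for BIRC3, the gene of cIAP2, reads only the endogenous transcript according to the methods, so it does not check the label of the transduced line, and its signal was 11.92 and 12.13 in untreated LP-1-cIAP2-eGFP cells against 13.57 and 13.67 in untreated control cells at 6 h.

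A pair of arrays stood apart from the rest and both bear on these genes. On replicate 1 of the untreated control cells at 24 h, 37 of 43 genes with a value on both arrays were higher than on replicate 2, with a median difference of 0.62, and 16 of them, or 37.2%, were more than 1 higher. The same difference exceeded 1 for 4.37% of all genes tested. CHAC1 was at 14.54 on replicate 1 and 10.66 on replicate 2, DDIT3 at 11.91 and 9.94, and SLC7A11 at 10.30 and 7.47. Of 9 heat shock genes, 1 was higher on replicate 1, and their median difference was -0.37. The cause of the difference between these 2 arrays was not tested. The other array was replicate 1 of the bortezomib-treated LP-1-cIAP2-eGFP cells at 24 h, which was dim, with 35.5% of its spots well above background against 49% to 71.1% on the other 15 arrays. The differences between its probes and those of its replicate had an SD of 1.65, against 0.652 to 0.958 in the other 7 conditions.

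**Figure D1:**
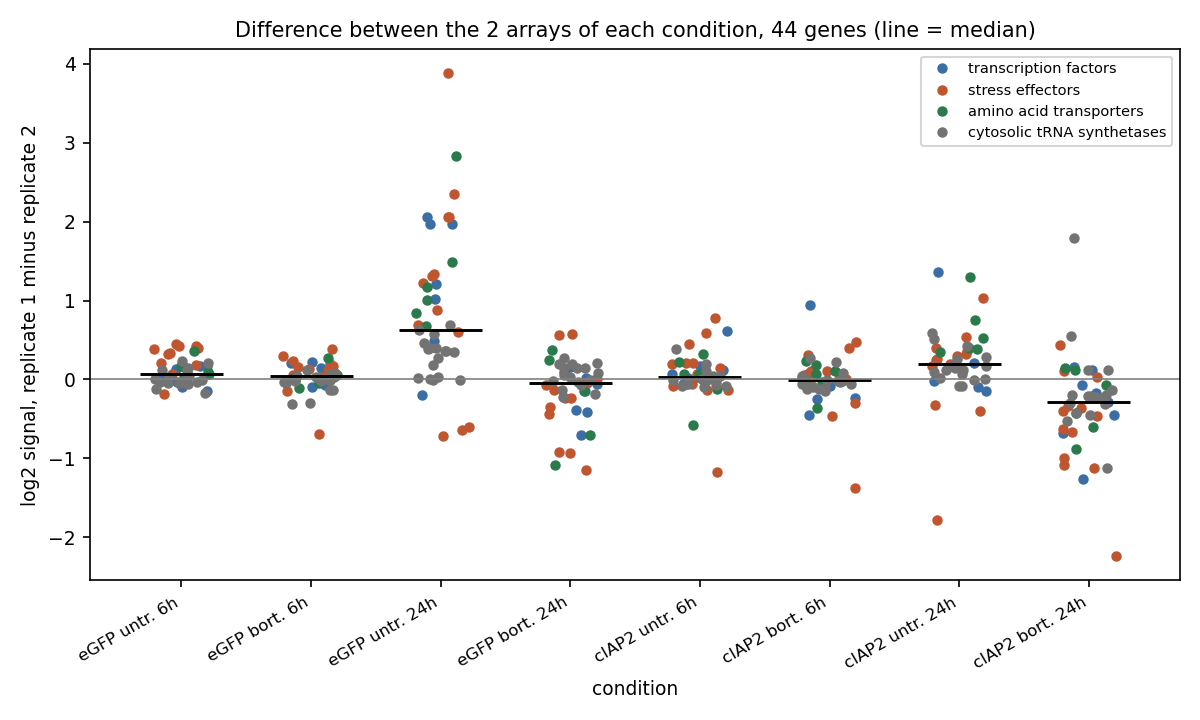
Each point is the log2 signal of a gene on replicate 1 minus that on replicate 2, for the 44 genes in each of the 8 conditions, coloured by class, and the black line is the median. In untreated control cells at 24 h the median was 0.62 and CHAC1, at the top, differed by 3.88.

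The RefSeq promoter windows of these genes, 250 bases before to 50 bases after a transcript start in the build GRCh38.p14, were searched for TGATGNAA, the core of the element that ATF4 binds with a C/EBP partner, on both strands. Of the 44 genes, 37 had a window and 7 (NUPR1, SLC7A11, VEGFA, ALDH1L2, LARS1, VARS1 and YARS1) had none in the table. The motif was found for 14 of the 37 genes (37.8%), counting every listed start of a gene, against 1217 of 27305 genes (4.46%) in the whole table. By class these were 3 of 7 transcription factors, 2 of 11 stress effectors, 2 of 5 transporters and 7 of 14 cytosolic tRNA synthetases, against 1 of 14 mitochondrial tRNA synthetases. A match is a description of the sequence and no evidence of binding. Of the 12 genes called higher at 24 h in both lines, 11 had a window and 2 held the motif, ATF3 and GARS1. Their windows are printed whole on the strand of the gene, 5′ to 3′, with the motif in capitals, to show where it lies. The motif is 191 bases before the start in ATF3, and 33 bases before the start and on the opposite strand in GARS1. ATF3 and GARS1 have 2 listed starts each. For a gene with several starts, here and below, the first window holding the motif is shown, and positions refer to its start.

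ATF3, chr1:212565157-212565456, plus strand: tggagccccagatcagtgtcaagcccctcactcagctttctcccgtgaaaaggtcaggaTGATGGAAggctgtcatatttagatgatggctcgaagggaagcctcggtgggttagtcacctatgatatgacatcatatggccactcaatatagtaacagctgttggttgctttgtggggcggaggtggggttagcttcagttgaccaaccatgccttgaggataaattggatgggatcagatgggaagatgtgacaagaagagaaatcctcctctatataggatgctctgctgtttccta

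GARS1, chr7:30594628-30594927, plus strand: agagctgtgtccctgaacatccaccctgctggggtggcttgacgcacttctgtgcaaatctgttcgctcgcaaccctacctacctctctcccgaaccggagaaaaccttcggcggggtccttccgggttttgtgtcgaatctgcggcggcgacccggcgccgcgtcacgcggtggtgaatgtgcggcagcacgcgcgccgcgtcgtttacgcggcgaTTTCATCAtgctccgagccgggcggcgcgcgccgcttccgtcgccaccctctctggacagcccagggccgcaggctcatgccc

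For the other 6 synthetases with a match, the motif and the bases around it are printed in the same way, because 5 of these matches, in CARS1, IARS1, MARS1, NARS1 and TARS1, lie within 14 bases of the start. These stretches, and those of CHAC1, ASNS and JDP2, were picked after the values were known. In capitals, TTNCATCA is the motif on the opposite strand.

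AARS1, chr16:70289670-70289709, minus strand: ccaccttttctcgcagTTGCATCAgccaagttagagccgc

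CARS1, chr11:3057402-3057441, minus strand: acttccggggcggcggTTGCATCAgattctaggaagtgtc

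IARS1, chr9:92293687-92293726, minus strand: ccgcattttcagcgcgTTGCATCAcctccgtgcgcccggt

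MARS1, chr12:57488048-57488087, plus strand: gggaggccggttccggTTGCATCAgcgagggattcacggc

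NARS1, chr18:57621799-57621838, minus strand: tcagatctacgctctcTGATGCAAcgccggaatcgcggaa

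TARS1, chr5:33440951-33440990, plus strand: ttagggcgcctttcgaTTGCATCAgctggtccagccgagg

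CHAC1, chr15:40953246-40953285, plus strand: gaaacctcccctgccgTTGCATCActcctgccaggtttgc

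ASNS, chr7:97872453-97872492, minus strand: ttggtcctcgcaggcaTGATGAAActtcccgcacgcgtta

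JDP2, chr14:75427990-75428029, plus strand: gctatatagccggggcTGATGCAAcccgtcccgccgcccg

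Bortezomib raised 6 to 16 of these 44 genes, by line and time, and lowered at most 1. A gene was called where limma gave an adjusted p below 0.05 over all probes. At 6 h, 11 of 44 genes were called higher in control cells, where 1.91% of all genes tested were, and none lower (0.957% of all genes). In LP-1-cIAP2-eGFP cells 6 of 44 were called higher (1.11% of all genes) and none lower (0.366%). At 24 h the counts were 15 higher and 1 lower in control cells, with 13.3% and 15.1% of all genes, whereas LP-1-cIAP2-eGFP cells had 16 higher and 1 lower, with 14.4% and 22% of all genes. The median difference of the 44 genes was 0.71 and 0.62 at 6 h and 0.49 and 0.43 at 24 h in control and LP-1-cIAP2-eGFP cells. Over all genes tested it was -0.05, -0.03, -0.04 and -0.16 in the same order. Markers of plasma cells moved at 24 h too. XBP1, SDC1 (-1.80 and -3.11), TNFRSF17, CD38 (-1.70 and -2.15) and MZB1 (-1.92 and -2.10) were called lower in control and LP-1-cIAP2-eGFP cells. PRDM1 was lower in both as well (-0.95 and -1.48), but had no value on replicate 1 of the treated control cells at 24 h. IRF4 was called lower in LP-1-cIAP2-eGFP cells alone (-1.46). POU2AF1 was called lower in control cells (-0.75) and higher in LP-1-cIAP2-eGFP cells (0.55). Untreated LP-1-cIAP2-eGFP cells had 3.07-fold more SDC1 than untreated control cells. Bulk RNA was measured, so fewer cells of a kind and less RNA per cell cannot be told apart.

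**Figure D2:**
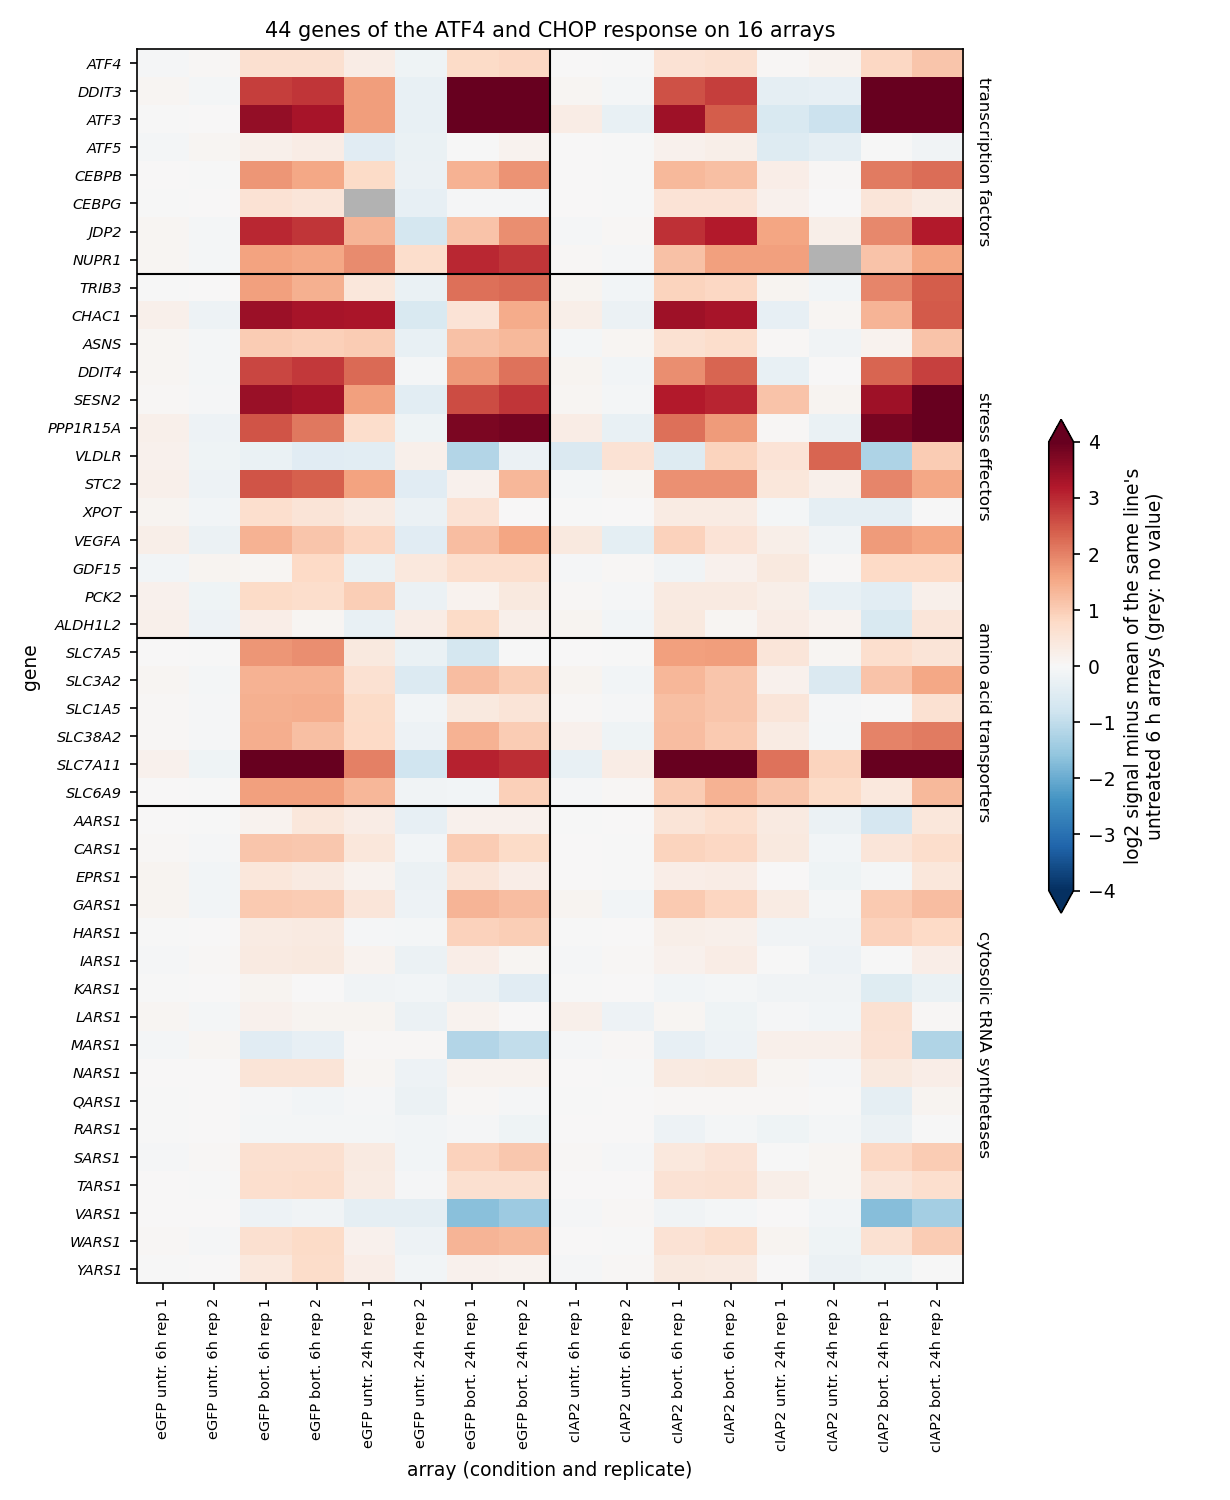
Rows are the 44 genes by class and columns the 16 arrays, and colour is the log2 signal minus the mean of the untreated 6 h arrays of the same line, limited to 4 in either direction. The treated arrays are red in most upper rows, VARS1 is blue at 24 h, and replicate 1 of the untreated control cells at 24 h is red in many rows where replicate 2 is not.

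The number of calls rested on few arrays. With replicate 1 of the untreated control cells at 24 h left out, 21 genes were called higher and 1 lower at 24 h in control cells, with a median of 0.84 (10.3% and 12.4% of all genes). With replicate 2 left out instead 10 were higher and 2 lower, with a median of 0.24 (9.54% and 10.6% of all genes). The 6 h calls fell to 0 in either line when any of the 4 arrays of that comparison was left out, and to 5 in control cells and 0 in LP-1-cIAP2-eGFP cells with the slide in the model. The sizes moved little beside the 0.71 and 0.62 above: the median 6 h difference of the 44 genes was 0.69 to 0.82 in control cells and 0.59 to 0.68 in LP-1-cIAP2-eGFP cells with these arrays left out, and 0.73 and 0.65 with the slide in the model. Over all genes the share called fell as well, to between 0.281% and 0.343% in control cells and between 0.319% and 0.48% in LP-1-cIAP2-eGFP cells without an array, and to 1.21% and 0.525% with the slide. The 5 were ATF3, TRIB3, SESN2, PPP1R15A and SLC7A5, all in control cells, and every other 6 h call of the 44 genes was lost under that model. At 24 h it lost SESN2, SLC7A11, CARS1 and TARS1 in control cells and no call in LP-1-cIAP2-eGFP cells. Array weights took the 24 h calls in LP-1-cIAP2-eGFP cells from 17 to 7 (36.4% and 12% of all genes). In control cells they took them from 16 to 15 (28.4% and 31.4%). Without replicate 1 or replicate 2 of the treated control cells the 24 h median in control cells was 0.55 and 0.56. With both of the arrays that stood apart left out, 27 genes were called higher at 6 h in control cells (5.15% of all genes, with 5.21% lower) and 25 in LP-1-cIAP2-eGFP cells (3.57%, with 3.08% lower).

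**Figure D3:**
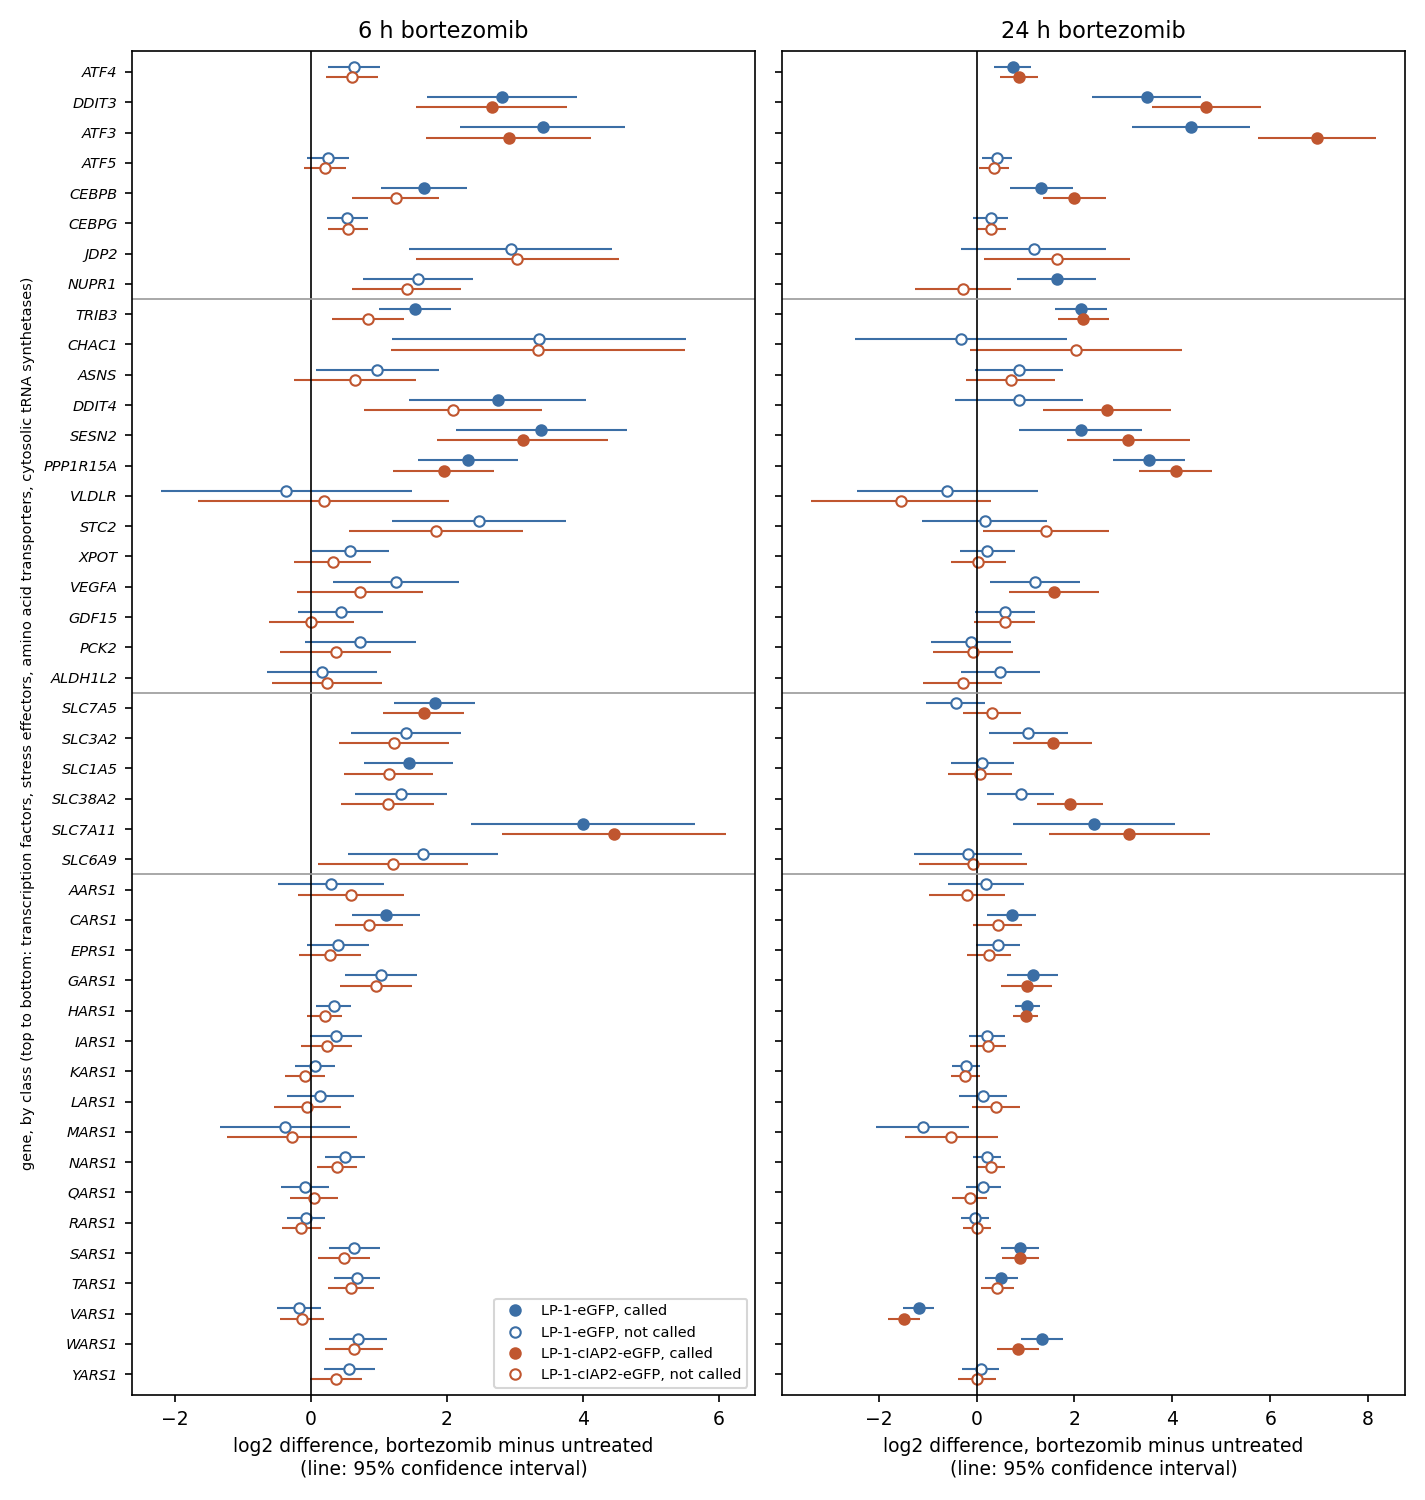
Points are log2 differences between bortezomib-treated and untreated cells at 6 h (left) and 24 h (right), blue for LP-1-eGFP and orange for LP-1-cIAP2-eGFP, filled where called at an adjusted p below 0.05, with 95% confidence intervals from limma as lines. ATF3 at 24 h lay farthest to the right, at 4.38 and 6.96, and VARS1 was the gene called lower in both lines, at -1.19 and -1.48.

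Of the 8 transcription factors, 3 in control cells and 2 in LP-1-cIAP2-eGFP cells were called higher at 6 h (1.91% and 1.11% of all genes), and 5 and 4 at 24 h (13.3% and 14.4%), with medians of 1.62 and 1.33 at 6 h and 1.24 and 1.25 at 24 h. ATF4 changed less than its partners and targets DDIT3, ATF3 and CEBPB, and more than CEBPG and ATF5. No test between genes was run. ATF4 signal in control cells was 16.98 and 17.07 untreated and 17.66 and 17.66 with bortezomib at 6 h, and 17.33 and 16.85 untreated and 17.80 and 17.86 treated at 24 h, for replicates 1 and 2. In LP-1-cIAP2-eGFP cells it was 16.88 and 16.82 untreated against 17.42 and 17.49 treated at 6 h and 16.91 and 17 untreated against 17.67 and 17.96 treated at 24 h. Treated arrays lay above untreated ones at each time in each line. The 6 h differences, 0.63 ± 0.17 and 0.60 ± 0.17 (SE), were not called, with adjusted p of 0.114 and 0.172. At 24 h ATF4 rose 1.66-fold in control cells (adjusted p = 0.013) and 1.81-fold in LP-1-cIAP2-eGFP cells (adjusted p = 0.00468).

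DDIT3, which encodes CHOP, was at 10.32 and 10.15 in untreated and 13.00 and 13.10 in treated control cells at 6 h, and at 11.91 and 9.94 untreated against 14.40 and 14.39 treated at 24 h. Signal in LP-1-cIAP2-eGFP cells went from 9.83 and 9.67 to 12.29 and 12.53 at 6 h and from 9.41 and 9.43 to 13.77 and 14.46 at 24 h. No treated array overlapped an untreated array of its line. The log2 difference was 2.81 ± 0.49 and 2.66 ± 0.49 at 6 h and 3.47 ± 0.49 and 4.70 ± 0.49 at 24 h in control and LP-1-cIAP2-eGFP cells, and it was called in all 4 comparisons (adjusted p = 0.023, 0.0396, 8.94e-04 and 1.27e-04). Without replicate 1 of the untreated control cells the 24 h difference in control cells was 4.46.

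ATF3, a stress-induced factor of the same bZIP family, had the largest 24 h difference of the 44 genes in both lines. It was at 9.75 and 9.75 untreated and 13.27 and 13.04 treated at 6 h and at 11.42 and 9.45 untreated against 14.61 and 15.02 treated at 24 h in control cells. In LP-1-cIAP2-eGFP cells the arrays read 10.33 and 9.72 untreated against 13.41 and 12.46 treated at 6 h, and 9.43 and 9.18 untreated against 16.22 and 16.29 treated at 24 h. Both treated arrays of LP-1-cIAP2-eGFP cells at 24 h were above both of control cells. The 24 h rise was 20.8-fold in control cells (4.38 ± 0.54 on the log2 scale, adjusted p = 4.06e-04) and 124-fold in LP-1-cIAP2-eGFP cells (6.96 ± 0.54, adjusted p = 2.55e-05). At 6 h the differences were 3.41 and 2.91, both called. ATF3 has 4 probes, of which the brightest is used here, and at 24 h the other 3 gave 0.12 to 4.09 in control cells and 0.86 to 6.43 in LP-1-cIAP2-eGFP cells, with 2 and 3 of them called higher too.

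CEBPB encodes C/EBPβ, a partner of ATF4. Its control arrays were at 12.57 and 12.53 untreated and 14.31 and 14.11 treated at 6 h, then 13.33 and 12.31 untreated against 13.95 and 14.34 treated at 24 h. LP-1-cIAP2-eGFP cells had 12.41 and 12.40 untreated against 13.70 and 13.62 treated at 6 h and 12.67 and 12.46 untreated against 14.48 and 14.65 treated at 24 h. Treated arrays were above untreated ones in each line at each time. CEBPB was called higher at 6 h in control cells (1.66 ± 0.28) and at 24 h in both lines (1.32 ± 0.28 and 2.00 ± 0.28), and the 6 h difference in LP-1-cIAP2-eGFP cells, 1.25 ± 0.28, was not (adjusted p = 0.0824). The array with the raised stress genes is again the highest untreated value, at 13.33.

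**Figure D4:**
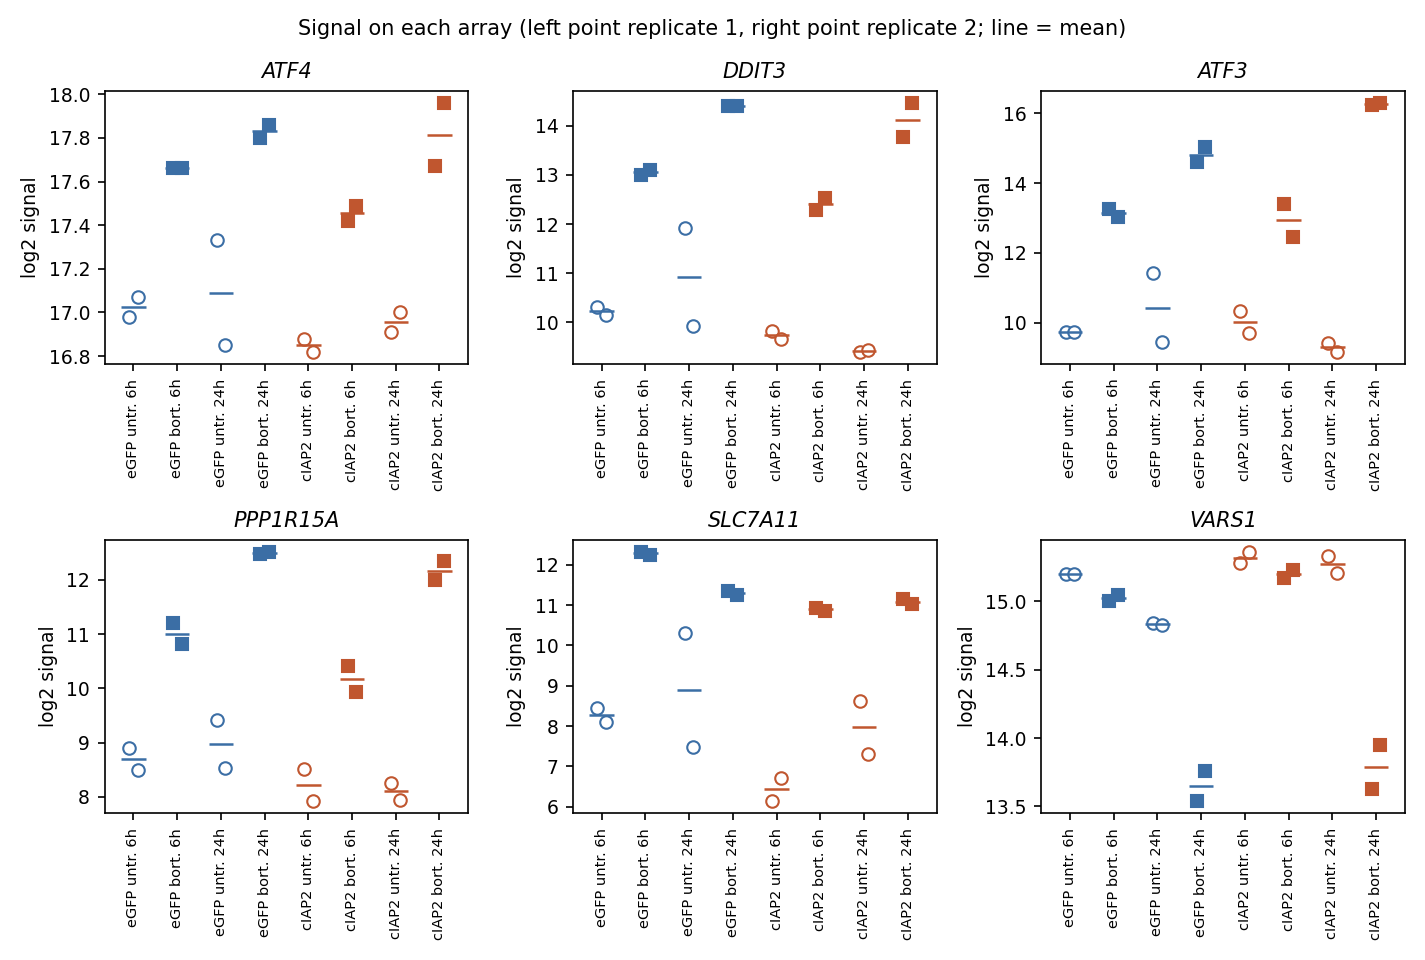
Log2 signal of 6 genes on each array, open circles untreated and filled squares bortezomib-treated, blue for LP-1-eGFP and orange for LP-1-cIAP2-eGFP, with replicate 1 on the left, replicate 2 on the right and a line at the mean. For ATF4, DDIT3, ATF3 and SLC7A11 the 2 untreated control arrays at 24 h lie apart, while for VARS1 both treated arrays at 24 h lie below every other array of their line.

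The remaining transcription factors were JDP2, NUPR1, ATF5 and CEBPG. JDP2, a bZIP repressor, was 2.94 and 3.04 higher at 6 h without passing the test (adjusted p = 0.0605 and 0.0726). Its 2 untreated arrays at 24 h differed by 2.06 in control cells and 1.36 in LP-1-cIAP2-eGFP cells, and the test takes 1 spread per probe over all conditions. NUPR1, a small stress-induced chromatin protein, was called higher at 24 h in control cells (1.64 ± 0.35, adjusted p = 0.0106). In LP-1-cIAP2-eGFP cells it was at 6.32 untreated on replicate 1 and at 5.82 and 6.27 treated at 24 h, where all spots of the probe on replicate 2 of the untreated 24 h cells carried outlier marks. In these cells 1 of the 2 arrays of either 24 h condition was well above background. ATF5 and CEBPG were not called in these 4 comparisons, with differences from 0.21 to 0.55, and CEBPG had no value on replicate 1 of the untreated control cells at 24 h.

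Of the 13 stress effectors, 4 in control cells and 2 in LP-1-cIAP2-eGFP cells were called higher at 6 h (1.91% and 1.11% of all genes) and 3 and 5 at 24 h (13.3% and 14.4%), with medians of 1.25 and 0.73 at 6 h and 0.58 and 1.42 at 24 h. PPP1R15A encodes GADD34, the phosphatase subunit that reverses eIF2 phosphorylation. Control cells had 8.89 and 8.49 untreated and 11.20 and 10.81 treated at 6 h and 9.41 and 8.53 untreated against 12.47 and 12.51 treated at 24 h. LP-1-cIAP2-eGFP cells had 8.51 and 7.92 untreated against 10.41 and 9.93 treated at 6 h and 8.26 and 7.94 untreated against 12 and 12.34 treated at 24 h. The groups did not overlap at either time. PPP1R15A rose in all 4 comparisons, 4.96-fold and 3.88-fold at 6 h and 11.5-fold and 16.8-fold at 24 h (adjusted p = 0.00947, 0.0261, 9.28e-05 and 3.21e-05).

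SESN2 encodes sestrin 2, which lowers mTORC1 activity. Its signal was 9.90 and 9.83 untreated against 13.31 and 13.19 treated at 6 h and 11.51 and 9.46 untreated against 12.49 and 12.73 treated at 24 h in control cells. LP-1-cIAP2-eGFP arrays were at 8.79 and 8.65 untreated against 11.88 and 11.78 treated at 6 h and 9.86 and 8.84 untreated against 12.12 and 12.78 treated at 24 h. Treated and untreated arrays did not overlap within a line at either time, and SESN2 was called higher throughout, by 3.39 ± 0.56 and 3.11 ± 0.56 at 6 h and 2.13 ± 0.56 and 3.1 ± 0.56 at 24 h. With the slide in the model the calls at 24 h in control cells (adjusted p = 0.0591) and at 6 h in LP-1-cIAP2-eGFP cells (adjusted p = 0.109) were lost.

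TRIB3 encodes a pseudokinase that CHOP and ATF4 induce and that in turn restrains ATF4. It was at 15.01 and 15.05 untreated against 16.68 and 16.44 treated at 6 h in control cells and at 15.47 and 14.77 untreated against 17.22 and 17.29 treated at 24 h. The LP-1-cIAP2-eGFP values were 14.96 and 14.77 untreated against 15.74 and 15.68 treated at 6 h and 14.96 and 14.76 untreated against 16.82 and 17.28 treated at 24 h. All treated arrays of TRIB3 were above the untreated ones of the same line. TRIB3 was called higher at 6 h in control cells (1.53 ± 0.24) and at 24 h in both (2.13 ± 0.24 and 2.18 ± 0.24), while the 6 h difference of 0.85 ± 0.24 in LP-1-cIAP2-eGFP cells was not called (adjusted p = 0.162).

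Of the other 10 effectors, DDIT4 and VEGFA were called in at least 1 of the 4 comparisons of treated with untreated cells. DDIT4, known as REDD1 and a brake on mTORC1, was called higher at 6 h in control cells (2.75 ± 0.58) and at 24 h in LP-1-cIAP2-eGFP cells (2.66 ± 0.58). Its 24 h difference in control cells was 0.86 ± 0.58, with untreated arrays at 15.70 and 13.35, and it was 2.04 without replicate 1 (adjusted p = 0.00227). The angiogenic factor VEGFA was called higher at 24 h in LP-1-cIAP2-eGFP cells (1.58 ± 0.41) on its brighter probe, and its other tested probe differed by 0.39 there and was not called.

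CHAC1, a CHOP target that degrades glutathione, was not called in these 4 comparisons although its treated arrays at 6 h were well above the untreated ones. Signal at 6 h went from 11.46 and 11.07 to 14.68 and 14.56 in control cells and from 10.47 and 10.02 to 13.63 and 13.53 in LP-1-cIAP2-eGFP cells, differences of 3.35 and 3.34 (adjusted p = 0.139 and 0.177). At 24 h LP-1-cIAP2-eGFP cells were at 9.92 and 10.33 untreated against 11.60 and 12.71 treated. That difference was 2.03 on the brighter probe and 0.33 on the other. The untreated control arrays at 24 h were at 14.54 and 10.66 and the treated ones at 11.81 and 12.75. The first of these untreated arrays was above both treated arrays, and without it CHAC1 was 1.62 higher at 24 h and 3.35 higher at 6 h, with an adjusted p of 0.00746 at 6 h.

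STC2, a secreted calcium regulator, was 2.47 and 1.83 higher at 6 h, not called. ASNS, asparagine synthetase and a classic ATF4 target, was 0.98 and 0.65 higher at 6 h and 0.87 and 0.70 higher at 24 h, not called, and its 24 h difference in control cells was 1.54 with an adjusted p of 0.0153 without the array described above. GDF15, PCK2, XPOT, ALDH1L2 and VLDLR were not called either. VLDLR and ALDH1L2 were well above background on all 8 control arrays and on 3 of 8 LP-1-cIAP2-eGFP arrays each.

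All 6 amino acid transporters had a positive difference at 6 h in both lines, with medians of 1.55 and 1.21, and 3 and 2 of them were called higher in control and LP-1-cIAP2-eGFP cells (1.91% and 1.11% of all genes). At 24 h the medians were 0.51 and 0.94, with 1 and 3 called higher (13.3% and 14.4% of all genes). SLC7A11, the light chain of the cystine transporter, was at 8.46 and 8.09 untreated and 12.31 and 12.25 treated at 6 h, and at 10.30 and 7.47 untreated against 11.34 and 11.24 treated at 24 h, in control cells. In LP-1-cIAP2-eGFP cells it was at 6.14 and 6.72 untreated against 10.92 and 10.86 treated at 6 h and 8.61 and 7.31 untreated against 11.14 and 11.02 treated at 24 h. Treated arrays were above untreated ones throughout, by the least margin in control cells at 24 h. SLC7A11 was called higher in all 4 comparisons, with the largest 6 h difference of the 44 genes in each line, 16-fold in control cells and 22-fold in LP-1-cIAP2-eGFP cells, both of them calls lost with the slide in the model (adjusted p = 0.0713 and 0.0775). At 24 h the difference was 2.40 ± 0.74 in control cells (adjusted p = 0.0444, and 0.094 with the slide in the model) and 3.12 ± 0.74 in LP-1-cIAP2-eGFP cells (adjusted p = 0.011).

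SLC38A2, the sodium-coupled neutral amino acid transporter SNAT2, had control arrays at 12.76 and 12.66 untreated against 14.17 and 13.90 treated at 6 h and 13.52 and 12.51 untreated against 14.10 and 13.73 treated at 24 h. Its LP-1-cIAP2-eGFP arrays were at 12.87 and 12.54 untreated against 13.93 and 13.75 treated at 6 h and 13.03 and 12.63 untreated against 14.70 and 14.77 treated at 24 h. The 2 groups did not overlap in any of these pairs, but came close in control cells at 24 h. SLC38A2 was called higher at 24 h in LP-1-cIAP2-eGFP cells (1.91 ± 0.30, adjusted p = 0.00131). The difference in control cells was 0.90 ± 0.30 (adjusted p = 0.0654), and 1.41 (adjusted p = 0.00644) without replicate 1 of the untreated cells.

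SLC3A2 encodes the heavy chain that carries SLC7A5 and SLC7A11 to the membrane. Control cells were at 12.89 and 12.73 untreated against 14.21 and 14.21 treated at 6 h and at 13.43 and 12.27 untreated against 14.03 and 13.79 treated at 24 h. In LP-1-cIAP2-eGFP cells the values were 12.65 and 12.43 untreated against 13.88 and 13.65 treated, then 12.70 and 11.96 untreated against 13.67 and 14.10 treated. Treated arrays lay above untreated ones in every pair. SLC3A2 was called higher at 24 h in LP-1-cIAP2-eGFP cells (1.55 ± 0.36), and its other 3 differences, from 1.06 to 1.4, were not called.

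Its partner SLC7A5, the leucine transporter LAT1, followed another course. SLC7A5 rose at 6 h in both lines (1.82 ± 0.27 and 1.66 ± 0.27, adjusted p = 0.0103 and 0.0207), and at 24 h its differences were -0.43 ± 0.27 and 0.32 ± 0.27, neither called. The glutamine transporter SLC1A5 was called higher at 6 h in control cells (1.44 ± 0.29) and differed by 0.12 and 0.07 at 24 h. The glycine transporter SLC6A9 was not called in these 4 comparisons, with 1.65 and 1.21 at 6 h.

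Cytosolic tRNA synthetases, which charge tRNAs with their amino acids, had smaller differences than the other classes and were called in both directions. Of 17, 1 was called at 6 h in control cells (CARS1, 1.10 ± 0.22) and none in LP-1-cIAP2-eGFP cells, with 1.91% and 1.11% of all genes called higher and 0.957% and 0.366% lower. At 24 h 6 were called higher and 1 lower in control cells, while LP-1-cIAP2-eGFP cells had 4 higher and 1 lower. Among all genes 13.3% were called higher and 15.1% lower in control cells at 24 h and 14.4% and 22% in LP-1-cIAP2-eGFP cells, so that calls of lower synthetases were below those shares. When a call also had to exceed 2-fold, the synthetases called higher came down to 3 in the control line and 2 in the other line, VARS1 stayed the 1 called lower in either, and of 16398 genes 1098 were called higher and 1383 lower in the control line and 1255 and 2281 in the other. The 24 h differences of the class had medians of 0.21 and 0.26. GARS1, HARS1, SARS1 and WARS1, which serve glycine, histidine, serine and tryptophan, were called higher in both lines, and CARS1 and TARS1 in control cells. At 6 h the class had medians of 0.37 and 0.28.

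WARS1 had control arrays at 12.74 and 12.63 untreated and 13.31 and 13.44 treated at 6 h and 12.87 and 12.47 untreated against 14.03 and 13.97 treated at 24 h. LP-1-cIAP2-eGFP arrays were at 12.71 and 12.69 untreated against 13.28 and 13.40 treated at 6 h and 12.82 and 12.53 untreated against 13.31 and 13.73 treated at 24 h. The ranges did not overlap at 6 h or 24 h. WARS1 rose 2.52-fold in control cells and 1.8-fold in LP-1-cIAP2-eGFP cells at 24 h (adjusted p = 9.02e-04 and 0.00863).

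GARS1, whose promoter window is printed above, was at 12.89 and 12.66 untreated against 13.83 and 13.80 treated at 6 h and 13.27 and 12.58 untreated against 14.14 and 14.00 treated at 24 h in control cells. The values in LP-1-cIAP2-eGFP cells were 12.59 and 12.40 untreated against 13.55 and 13.34 treated, and 12.83 and 12.41 untreated against 13.54 and 13.74 treated. Both treated arrays exceeded both untreated ones in each pair. Its 24 h rise was 2.21-fold and 2.03-fold (adjusted p = 0.00679 and 0.00997), and its 6 h differences of 1.03 and 0.95 were not called. HARS1 rose by 1.03 ± 0.11 and 1.00 ± 0.11 and SARS1 by 0.89 ± 0.17 and 0.89 ± 0.17 at 24 h. SARS1 rests on the brighter of its 2 probes, and the dimmer probe gave -0.52 and -0.22 at 24 h.

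VARS1, the valine enzyme, fell. It was at 15.20 and 15.20 untreated and 15 and 15.05 treated at 6 h in control cells and at 14.84 and 14.83 untreated against 13.54 and 13.76 treated at 24 h. LP-1-cIAP2-eGFP cells were at 15.28 and 15.36 untreated against 15.17 and 15.23 treated at 6 h and 15.33 and 15.21 untreated against 13.63 and 13.95 treated at 24 h. The 2 replicates differed by at most 0.317 in any condition, and the 24 h arrays with bortezomib were below all others. VARS1 fell by 1.19 on the log2 scale in control cells and by 1.48 in LP-1-cIAP2-eGFP cells (adjusted p = 3.75e-04 and 8.46e-05), and its 6 h differences were -0.18 and -0.12.

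MARS1 gave no settled direction, since its brighter probe differed by -1.10 and -0.51 at 24 h and its other probe by 0.27 and 0.40, none of them called. Of the 10 genes with more than 1 tested probe, SARS1, MARS1 and PCK2 were those whose probes differed in sign at 24 h. The treated LP-1-cIAP2-eGFP arrays of the brighter probe were at 15.02 and 13.24, so they stood on either side of the untreated ones at 14.65 and 14.64. Of the 7 cytosolic synthetases with the ATF4 motif in a promoter window, 3 were called higher at 24 h in control cells and 1 in LP-1-cIAP2-eGFP cells, and of the 7 with a window and no match, 3 and 3 were, where 13.3% and 14.4% of all genes were.

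**Figure D5:**
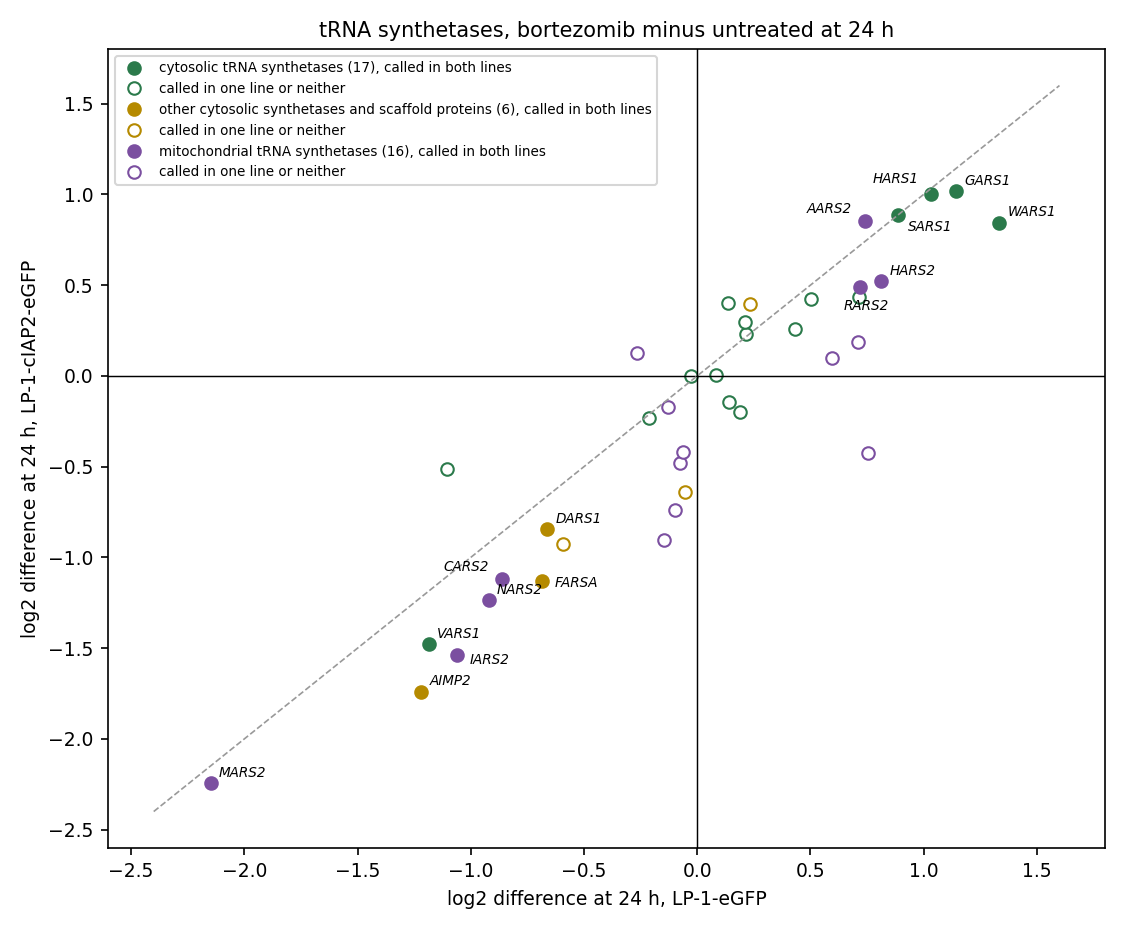
Each point is a gene, placed by its log2 difference at 24 h in LP-1-eGFP (x) and LP-1-cIAP2-eGFP cells (y), green for the 17 cytosolic synthetases described, yellow for 6 other cytosolic synthetases and scaffold proteins and purple for 16 of 17 mitochondrial synthetases, filled and named where called in both lines. The dashed line marks equal differences, and the green points called higher lie near 1. MARS2 is plotted at its measured values although it was not well above background on either treated LP-1-cIAP2-eGFP array and on 1 of 2 treated control arrays.

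Of 6 other cytosolic synthetases and scaffold proteins of the multisynthetase complex, none was called higher at 24 h, and 3 in control cells and 4 in LP-1-cIAP2-eGFP cells were called lower, with medians of -0.63 and -0.88. The scaffold protein AIMP2 fell most (-1.22 and -1.74), and the phenylalanine enzyme subunits FARSA (-0.69 and -1.13) and FARSB (-0.59, not called, and -0.92) followed. Of 17 mitochondrial synthetases, which serve translation inside mitochondria, 4 were called higher and 5 lower in control cells whereas in LP-1-cIAP2-eGFP cells 3 were higher and 7 lower. Over all genes at 24 h these shares were 13.3% higher and 15.1% lower in control cells and 14.4% and 22% in LP-1-cIAP2-eGFP cells. MARS2 and IARS2 fell in both lines, IARS2 by 1.06 and 1.54. MARS2 was well above background on 1 of 2 treated control arrays at 24 h and on neither treated array of LP-1-cIAP2-eGFP cells, where it was at least 1.82-fold lower. No test of a difference between these lists was run.

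Whether the bortezomib response differed between 6 h and 24 h was tested as the 24 h difference minus the 6 h difference. In control cells 1 of 44 genes was called higher at 24 h (2.48% of all genes) and 2 lower (3.54%), and in LP-1-cIAP2-eGFP cells 4 were called higher (4.69%) and 1 lower (7.21%). HARS1 grew with time in both lines (0.69 ± 0.16 and 0.80 ± 0.16, adjusted p = 0.0471 and 0.0169) and VARS1 declined in both (-1.01 ± 0.20 and -1.35 ± 0.20, adjusted p = 0.028 and 0.00483). SLC7A5 declined in control cells (-2.25 ± 0.38, adjusted p = 0.0132), and its value in LP-1-cIAP2-eGFP cells was -1.34 ± 0.38 (adjusted p = 0.058). ATF3 (4.04 ± 0.77), PPP1R15A (2.11 ± 0.47) and TRIB3 (1.34 ± 0.33) grew in LP-1-cIAP2-eGFP cells, against 0.97 ± 0.77, 1.21 ± 0.47 and 0.60 ± 0.33 in control cells, not called. With the slide in the model none of the 3 calls in control cells remained, and without replicate 1 of the untreated control cells at 24 h the value for ATF3 in control cells was 1.96.

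The values of CHAC1, STC2 and DDIT4 in control cells were -3.67, -2.30 and -1.89, none of them called, and without the same array they were -1.73, -1.27 and -0.71. In untreated cells, none of the 44 genes was called between 24 h and 6 h in either line by limma. Over all genes 0% were called higher and 0% lower in control cells, and 0% and 0.0122% in LP-1-cIAP2-eGFP cells. At an unadjusted p below 0.05, 3 of the 44 genes differed in control cells (ATF5, NUPR1 and VARS1, or 6.82%, against 3.13% of all genes) and 2 in LP-1-cIAP2-eGFP cells (4.55%, against 3.25%). The latter were ATF5 and NUPR1, and for NUPR1 the p carries no weight, since neither 6 h array was well above background and the 24 h level is that of 1 array.

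The response of the 2 lines was compared as the difference in LP-1-cIAP2-eGFP cells minus that in control cells. None of the 44 genes was called at 6 h or at 24 h. Over all genes, limma called 0% higher and 0% lower at 6 h and 0.0793% higher and 0.0244% lower at 24 h. At an unadjusted p below 0.05, 0 of 44 genes differed at 6 h and 3 at 24 h (6.82%, against 8.71% of all genes), namely ATF3, SLC38A2 and NUPR1. The last of these is no valid test, because NUPR1 was never above background on both arrays of an LP-1-cIAP2-eGFP condition. With replicate 2 of the bortezomib-treated LP-1-cIAP2-eGFP cells left out, so that the dim array alone stood for that condition, 1 gene was called higher and 3 lower at 24 h, against 7.75% and 20.1% of all genes. For ATF3 at 24 h the response was 2.58 larger in LP-1-cIAP2-eGFP cells (95% interval 0.86 to 4.29, adjusted p = 0.448), and 1.59 larger without replicate 1 of the untreated control cells. The interval was narrow for HARS1 (-0.39 to 0.33) and ATF4 (-0.42 to 0.67) and wide for CHAC1 (-0.71 to 5.41) and DDIT3 (-0.34 to 2.79).

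In untreated cells, with both times averaged, none of the 44 genes was higher in LP-1-cIAP2-eGFP cells (4.2% of all genes were called higher) and 3 were lower (6.58%), a share near that of all genes. At an unadjusted p below 0.05, 15 of the 44 differed (34.1%), 13 of them lower, against 24.4% of all genes, and the median of the 44 was -0.21. That median rested partly on the array with the raised stress genes. It was -0.09 without replicate 1 of the untreated control cells at 24 h and -0.39 without replicate 2. Among the 3 was NUPR1, which was tested only because control cells carried it above background, on 8 of 8 arrays against 3 of 8 LP-1-cIAP2-eGFP arrays and never on both arrays of an LP-1-cIAP2-eGFP condition. Its values are therefore given as a description, with no size or test of the difference. The untreated arrays were at 8.82 and 8.69 at 6 h and 10.65 and 9.44 at 24 h in control cells, and at 4.73 and 4.62 at 6 h and 6.32 on replicate 1 at 24 h in LP-1-cIAP2-eGFP cells, where neither untreated array at 6 h was well above background. The lipoprotein receptor VLDLR, also given as a description, was at 6.99 and 6.66 at 6 h and 6.39 and 7.03 at 24 h in untreated control cells. In untreated LP-1-cIAP2-eGFP cells it was at 3.21 and 4.38 at 6 h, neither well above background, and at 4.34 and 6.12 at 24 h. The remaining call, for which all 16 arrays were well above background, was the isoleucine enzyme IARS1 (-0.57 ± 0.12, adjusted p = 0.0169). Without replicate 1 of the untreated control cells at 24 h the difference of IARS1 was -0.48 and its call was lost (adjusted p = 0.0535, where 2.99% of all genes were then called higher and 5.37% lower), and without replicate 2 10 genes were called lower (5% of all genes, with 3.28% higher).

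In bortezomib-treated cells at 24 h none of the 44 genes was higher in LP-1-cIAP2-eGFP cells (2.9% of all genes) and 1 was lower (5.17%). This was again NUPR1, at 11.76 and 11.60 in control cells and 5.82 and 6.27 in LP-1-cIAP2-eGFP cells, where 1 of the 2 arrays was well above background, so the same limit holds. ATF3 was 1.44 ± 0.54 higher in LP-1-cIAP2-eGFP cells and was not called (adjusted p = 0.152). Without replicate 2 of the treated LP-1-cIAP2-eGFP cells 1 gene was called higher and 10 lower, with 12.8% and 31.1% of all genes. This comparison shares its treated arrays with the 24 h comparisons above.

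A list of 13 measured genes held the eIF2 kinases, eIF2, its exchange factor eIF2B, PPP1R15B and IMPACT. None of them was called at 6 h. At 24 h 1 was higher and 3 lower in control cells, while LP-1-cIAP2-eGFP cells had 2 higher and 3 lower. Over all genes 13.3% were higher and 15.1% lower in control cells and 14.4% and 22% in LP-1-cIAP2-eGFP cells, so these counts are near the shares of all genes. EIF2AK2, the kinase PKR that senses double-stranded RNA, rose in both lines at 24 h (0.94 and 0.84). EIF2AK3, the endoplasmic reticulum kinase PERK, was 0.52 in control cells, not called, and 0.76 in LP-1-cIAP2-eGFP cells. EIF2AK4, the amino acid sensor GCN2, fell in control cells (-0.43, against -0.35 in LP-1-cIAP2-eGFP cells, not called), and EIF2AK1, the haem-regulated kinase, was not called. IMPACT, an inhibitor of GCN2, fell in both lines (-0.51 and -0.59).

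Other reported targets of ATF4 or CHOP, which are not among the 44, were called higher for 8 of 22 genes at 6 h and 8 of 22 at 24 h in control cells, and for 3 and 8 of 22 in LP-1-cIAP2-eGFP cells, where 1 was called lower at 24 h. The shares of all genes called higher in these 4 comparisons were 1.91%, 13.3%, 1.11% and 14.4%, and at 24 h 15.1% and 22% were called lower in control and LP-1-cIAP2-eGFP cells, which are the shares to set beside the next lists as well. PMAIP1, which encodes the BH3-only protein NOXA, rose by 3.85 and 4.31 at 24 h. CTH, the enzyme that makes cysteine from cystathionine, rose by 2.90 and 3.62 and TSC22D3, a glucocorticoid-induced leucine zipper protein, by 2.41 and 2.56. In the ATF6 and XBP1 branch of the unfolded protein response, 5 of 12 genes were called higher and 1 lower at 24 h in each line. The chaperone HSPA5 (2.59 and 2.29) and its cochaperone DNAJB9 (1.33 and 2.46) rose at 24 h and XBP1 fell (-1.72 and -1.20). Of 9 heat shock genes, 7 in control cells and 8 in LP-1-cIAP2-eGFP cells were called higher at 24 h, with HSPA1B at 5.61 and 4.87, DNAJB1 at 4.50 and 4.79 and BAG3 at 4.67 and 4.60.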

How the data were processed

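Values came from 16 single-colour arrays of 2 slides, 8 conditions with 2 arrays each. The slides were not balanced over lines or treatment. Both treated control arrays at 6 h and both untreated control arrays at 24 h were on slide 2. All treated LP-1-cIAP2-eGFP arrays were on slide 1, and the other conditions were split between the slides. Differences between lines, or with treatment, therefore cannot be fully told apart from differences between slides. The deposited intensity of each spot was made by the authors with Agilent Feature Extraction 10.7.3.1, which subtracts background and removes spatial trends. Flagged spots were left out, spots of a probe were averaged as log2, and arrays were quantile normalized, as the methods state. The authors' deposited table of log2 values, centred on each probe, served as an alternative. Testing was limited to 33731 probes, those that Feature Extraction marked as well above background on both replicates of 1 condition or more. Limma 3.58.1 in R 4.3.3 fitted a mean per condition, with p-values adjusted by Benjamini-Hochberg over all probes. A gene was read from its brightest probe. Of 50599 gene probes, 28174 had a RefSeq accession that matched 1 symbol. The number of arrays limits the precision, and with 2 per condition the spread was estimated over all conditions together.

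The members and gene lists were chosen with earlier results of these data known. Values on every array were given for ATF4, DDIT3, ATF3 and the 3 genes of each class with the largest mean 24 h change. Context genes were the 3 with the largest such change per list and the eIF2 kinases, and some of these results are not reported here. The fit was tested on simulated data. Alternatives covered background correction, scaling, probe filters, slide, array weights, averaged probes, a fold threshold and each array left out. Leaving out both arrays that stood apart was added after the data were seen. Over 28 pairs of conditions, deviations of arrays with the same replicate number correlated between -0.11 and 0.239 (median 0.0389), so the numbers were not used as pairs.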

Additional observations from a re-analysis of the deposited data

Results flagged for a closer look

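The bortezomib response at 24 h differed from that at 6 h for 8 combinations of gene and line, by the interaction term of the limma fit. These were 3 of the 44 genes in control cells, where 2.48% of all genes were called higher and 3.54% lower, and 5 in LP-1-cIAP2-eGFP cells, with 4.69% and 7.21%, so the counts are near the shares of all genes. In LP-1-cIAP2-eGFP cells the response of ATF3 was 4.04 larger at 24 h on the log2 scale, that of PPP1R15A 2.11, that of TRIB3 1.34 and that of HARS1 0.798, while that of VARS1 was lower (-1.35). In control cells the response of HARS1 was 0.692 larger, and those of SLC7A5 (-2.25) and VARS1 (-1.01) were lower. Without replicate 1 of the untreated control cells at 24 h the adjusted p in control cells was 0.0351 for SLC7A5, 0.0858 for HARS1 and 0.0651 for VARS1. With the slide in the model none of the 3 was called in control cells, and in LP-1-cIAP2-eGFP cells TRIB3 was lost (adjusted p = 0.0585). These differences between times were tested within each line and not between lines.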

How the results depend on the processing

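Counts below are of members called in either direction, out of 44, with the percentage of all genes called in the same fit in brackets. As reported above they were 11 (2.87%) and 6 (1.48%) at 6 h (control, then LP-1-cIAP2-eGFP cells), 16 (28.4%) and 17 (36.4%) at 24 h, 3 (6.01%) and 5 (11.9%) for 24 h against 6 h, 3 (10.8%) between untreated lines and 1 (8.06%) between treated lines at 24 h. Without a filter on dim probes they were 5 (1.03%) and 1 (0.537%) at 6 h, 1 (2.24%) and 3 (6%) for 24 h against 6 h, and 1 (7.2%) between untreated lines. Restricted to probes above background throughout, they were 25 (13.4%) and 15 (7.71%) at 6 h, 8 (22.7%) between untreated lines and 4 (19.7%) between treated lines at 24 h. With the slide as a block they were 5 (1.21%) and 0 (0.525%) at 6 h and 0 (1.66%) for 24 h against 6 h in control cells. With array weights they were 33 (21.6%) and 22 (6.89%) at 6 h, 7 (12%) at 24 h in LP-1-cIAP2-eGFP cells, 1 (3.2%) for 24 h against 6 h in LP-1-cIAP2-eGFP cells and 12 (20.5%) between untreated lines. With both arrays that stood apart left out they were 27 (10.4%) and 25 (6.65%) at 6 h, 26 (38.2%) at 24 h in control cells, 8 (16.3%) and 9 (19.4%) for 24 h against 6 h and 7 (19.7%) between untreated lines. Between treated lines at 24 h the count was 3 (8.42%) with normexp background and 2 (6.74%) with averaged probes. With more than 2-fold required as well, 11 (1.62%) and 6 (0.946%) were called at 6 h and 12 (15.1%) and 14 (21.6%) at 24 h. The replicate block, whose numbers do not pair the arrays, gave 2 (10%) between treated lines, 12 (4.03%) and 6 (2.12%) at 6 h and 20 (31.6%) and 17 (39.5%) at 24 h, and changed no other count by more than 1.5 times. The cause of these changes was not tested.

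Leaving out single arrays, the counts ran from 0 to 22 and 0 to 13 at 6 h, 9 to 22 and 12 to 24 at 24 h, 0 to 5 and 1 to 10 for 24 h against 6 h, 1 to 10 between untreated lines and 1 to 11 between treated lines at 24 h. The difference of responses ran from 0 to 0 at 6 h and 0 to 4 at 24 h, and the untreated times from 0 to 0 in both lines. Over all genes the share called ran from 0.281% to 8.8% and 0.319% to 5.34% at 6 h, 18.4% to 40.8% and 24.1% to 56.9% at 24 h, 1.52% to 16% and 4.6% to 41% for 24 h against 6 h, 6.09% to 20.2% between untreated lines, 2.74% to 43.9% between treated lines and 0% to 27.9% for the difference of responses at 24 h. An array whose replicate was left out was assumed to vary like the other conditions. CHAC1 at 24 h in control cells turned to 1.62 (adjusted p = 0.0169) with both arrays left out, and MARS1 at 24 h in LP-1-cIAP2-eGFP cells to 0.38 (adjusted p = 0.0469) without replicate 2 of the treated cells, against -1.41 without replicate 1. Of 4733 alternative values of 176 single-gene results, 4268 stayed on the same side of the threshold (93 of them changed sign while called in neither), 232 lost and 224 gained a call, and 7 values within a slide moved.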
